A study of Mus musculus with 8 samples.

Results

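The olfactory receptor gene clusters described here are 3 stretches of the mouse genome (build mm9), the 5.2 Mb that begin at 85100001 on chromosome 2, the 2.5 Mb that begin at 37500001 on chromosome 9 and the 2.9 Mb that begin at 109600001 on chromosome 7. They were cut into 5-kb windows that start at multiples of 5 kb, and all windows were kept whatever their signal. This gave 2120 windows, 1040 on chromosome 2, 500 on chromosome 9 and 580 on chromosome 7, of 527798 windows on chromosomes 1 to 19 and X. At least 1 tag lay in 2081 of them, and 39 held none in any library, 36 of these on chromosome 2. The 3 Mb on each side of each cluster, 3600 windows in all, served as flanks.

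ChIP-seq of H3K9me3 was done on Setdb1 tm1c/tm2 ES cells of the JM8 line (C57BL/6N), grown without feeders in serum and LIF, untreated (T = 0) or collected 2, 4 or 6 days after 0.8 μM 4′OHT was added, for 48 h in all. Cells of all groups carry the null tm2 allele on the other chromosome and a CreERT2 recombinase at Rosa26, which is expressed in all cell types, and 4′OHT turns the conditional tm1c allele into the null tm1d allele. These are the allele names of the study's text; the sample labels call the untreated cells tm1a/tm2 and the treated ones tm1c/tm2. The lines are clones, and tm1c/+ control cells and input chromatin were not analysed here. Each later time point was therefore compared with T = 0 of the same cells. An antibody described as similar to a product of Upstate (Upstate-type antibody) was used at all 4 times, and lots 58206 and 638466 of an Abcam antibody at T = 0 and T = 6d. That makes 8 libraries with 1 per antibody and time point, of 6887819 tags (Upstate-type antibody), 8503927 tags (lot 58206) or 12194174 tags (lot 638466).

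Olfactory receptors are G protein-coupled receptors that detect odorants, and each mature olfactory sensory neuron expresses a single one of them while the others are silent. The genes lie in tandem arrays of similar, mostly intronless coding sequences, and in the olfactory epithelium the silent arrays are known to carry H3K9me3. Setdb1 is a methyltransferase that trimethylates lysine 9 of histone H3, and in ES cells it acts above all at endogenous retroviruses.

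No annotation of mm9 was used here, so the genes within single windows are not named and the limits of the clusters were not checked against gene positions. In the RefSeq annotation of GRCm38.p6, which is used here only for names and neighbours, 377 genes with an Olfr symbol lie on chromosome 2, 294 on chromosome 7 and 179 on chromosome 9, the highest numbers of all chromosomes, followed by chromosome 11 with 104. A window inside the chromosome 9 cluster can be tied to genes, because the study draws a 20-kb box there between Olfr147 and Olfr901 (38216001 to 38236000, read from the drawn axis to about 1 kb). In RefSeq these are neighbours with 0 genes between them, and the 5 genes on either side are olfactory receptor genes too. The sequences before both genes are shown because the genes flank the region of the clusters where the largest fall of a single window was seen. They are the 250 bases before the RefSeq gene start on the plus strand of GRCm38.p6, with coordinates that do not apply to mm9. Capitals mark CCCNNGGG, the core of the site of the Olf/Ebf factors, which are active in olfactory neurons, and TAATTA, a core that homeodomain factors bind. Both motifs read the same on either strand.
Olfr147 (chr9:38401461-38401710): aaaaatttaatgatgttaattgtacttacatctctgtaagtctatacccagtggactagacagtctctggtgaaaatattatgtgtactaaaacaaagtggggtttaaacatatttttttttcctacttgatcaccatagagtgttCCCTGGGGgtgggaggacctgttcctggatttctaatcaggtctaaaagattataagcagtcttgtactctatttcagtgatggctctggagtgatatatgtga
Olfr901 (chr9:38430034-38430283): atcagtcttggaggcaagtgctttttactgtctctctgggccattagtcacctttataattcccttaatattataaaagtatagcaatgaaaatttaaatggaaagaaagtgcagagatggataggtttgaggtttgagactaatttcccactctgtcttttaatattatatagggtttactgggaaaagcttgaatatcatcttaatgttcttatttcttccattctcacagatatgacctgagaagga

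The stretch before Olfr147 is 63.6% A and T and holds CCCNNGGG once, and that before Olfr901 is 66% A and T and holds neither motif. Windows of this length exist in the table for 561 olfactory receptor genes on chromosomes 2, 7 and 9 (564 windows), with a median of 67.2% A and T, against 47.6% over all 32851 windows before gene starts. CCCNNGGG was found in 2.66% of the olfactory receptor windows and in 11.8% of all, and TAATTA in 20.2% and 4.84%. These shares were not adjusted for the different A and T content, so they do not show an excess or a lack of either motif. Of the 656 protein-coding olfactory receptor genes on these chromosomes, 522 have models whose length is a multiple of 3, so many of these windows lie before a coding start rather than a mapped start of transcription.

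The clusters were poor in tags with every antibody and at every time point. Their density, given as tags per window relative to the mean of all windows with a tag in the same library, lay between 0.559 and 0.616 with the Upstate-type antibody and between 0.666 and 0.773 with the Abcam lots. The chromosome 2 cluster was the lowest, between 0.502 and 0.715 over the 8 libraries. The chromosome 9 cluster lay between 0.584 and 0.842 and the chromosome 7 cluster between 0.615 and 0.815. In all 8 libraries, each cluster held fewer tags per window than the mean of the genome.

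The sequence beside the clusters was not poor to the same degree. On chromosome 2 the left flank lay between 0.897 and 1.01 and the right flank between 1.17 and 1.75. On chromosome 9 the flanks lay between 1.06 and 1.19 on the left and between 0.956 and 1.35 on the right. On chromosome 7 they lay between 1.16 and 1.72 on the left and between 0.723 and 0.914 on the right, so that the right flank of this cluster was low as well. The files hold uniquely mapped tags only, and less H3K9me3 cannot be told apart from fewer bases that map uniquely or from low GC content, since neither input nor the mm9 sequence was used.

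**Figure D1:**
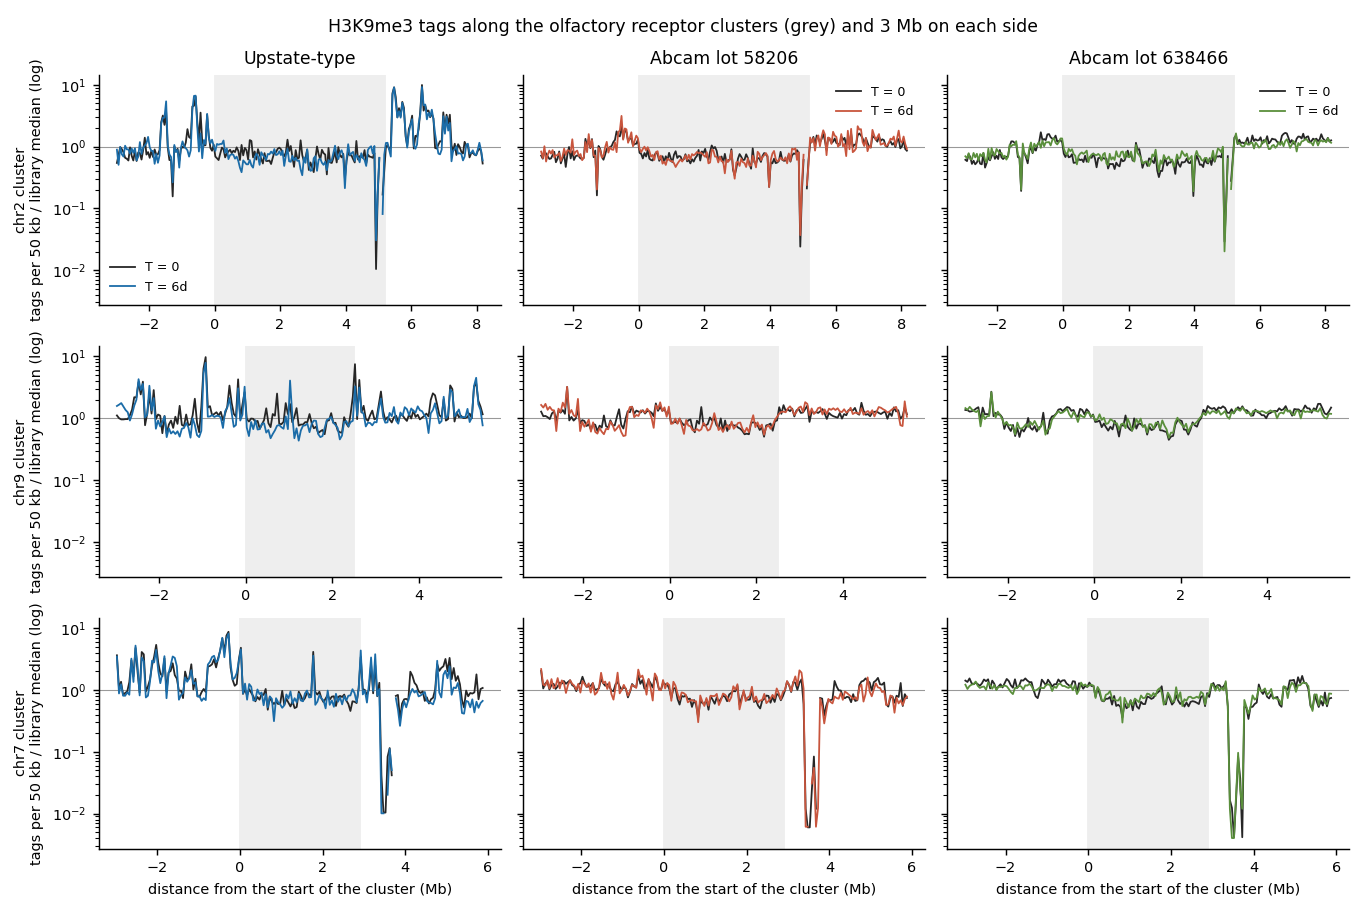
Tags per 50-kb window divided by the median of the library (vertical axis, log scale) against the distance from the start of each cluster in Mb, for T = 0 and T = 6d with each antibody; windows with 0 tags leave a gap in the line. Inside the clusters (grey) the lines run below 1 for most windows, and with the Upstate-type antibody the T = 0 and T = 6d lines part at single windows, such as those with 241 and 75 tags on chromosome 9 and 121 and 42 on chromosome 2.

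The level of a window was taken as its mean number of tags per 1000000 tags in the 6 libraries of T = 0 and T = 6d, divided by the median of the genome. The median level was 0.711 in the clusters and 1.11 in the flanks. Among the cluster windows with a tag, 220 (10.6%) reached the median of the genome, where 50% of all windows do, and 12 (0.577%) reached 2 times the median, against 5.83% of all windows and 8.69% of flank windows. Of these 12, 8 lay on chromosome 7, 4 on chromosome 9 and 0 on chromosome 2. The highest level was 3.92 on chromosome 7, 2.33 on chromosome 9 and 1.59 on chromosome 2.

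The antibodies gave similar but not equal profiles along the clusters. Across the 211 windows of 50 kb with a tag, the tags of lots 58206 and 638466 at T = 0 had a Pearson's r of 0.859 and a Spearman's rho of 0.798. Against the Upstate-type antibody, lot 58206 had r = 0.632 (rho = 0.699) and lot 638466 r = 0.655 (rho = 0.718). Neighbouring windows share base composition and how well they map, so these values describe the profiles and were not tested.

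As a whole, the clusters changed by less than 1.5-fold after 4′OHT with each antibody. With the Upstate-type antibody the 3 clusters held 16709, 16340, 17470 and 15860 tags, in the order T = 0, T = 2d, T = 4d and T = 6d that is kept in all such lists. With lot 58206 they held 25290 tags at T = 0 and 24757 at T = 6d. With lot 638466 they held 33462 at T = 0 and 38826 at T = 6d. The number was thus slightly lower at T = 6d with the first antibody and lot 58206 and higher with lot 638466.

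Each library was compared with T = 0 of the same antibody by Fisher's exact test (two-sided, on the tags of a region and those elsewhere), adjusted by Benjamini-Hochberg over 25 tests, and a change had to exceed 1.5-fold to be called. None of the clusters passed, in any comparison. A loss confined to few windows can hardly change the sum of a cluster by 1.5-fold. With the Upstate-type antibody at T = 0, the 13 windows named below as lower held 412 of the 16709 cluster tags. No input was used either, so the share of background in these sums is not known. The rule therefore does not show whether parts of the clusters lost H3K9me3. The ratio of T = 6d to T = 0 over the 3 clusters was 0.949 with the Upstate-type antibody (95% interval 0.929 to 0.970), 0.979 with lot 58206 (0.962 to 0.996) and 1.16 with lot 638466 (1.14 to 1.18). These intervals cover counting error only, and with 1 library per antibody and time point the test compares libraries rather than conditions. Over the 3 antibodies the mean log2 ratio was 0.036 (SD 0.16), with P = 1 by a two-sided exact sign-flip test, in which 3 antibodies can give no P below 0.25.

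The single clusters moved within the same narrow range. The Upstate-type antibody gave 4677, 4532, 4698 and 3969 tags on chromosome 9, a ratio of 0.849 at T = 6d (0.813 to 0.885), the lowest of all. This cluster also had a ratio of 0.939 with lot 58206 (0.907 to 0.971) and of 1.13 with lot 638466 (1.1 to 1.17). On chromosome 2, the ratios at T = 6d were 0.961, 0.965 and 1.19 in the same order of antibodies, and on chromosome 7 they were 1.03, 1.04 and 1.14. Chromosome 7 was therefore above 1 with every antibody, while chromosomes 2 and 9 were below 1 with 2 antibodies and above 1 with lot 638466. The exact sign-flip test gave P = 1 for chromosome 2, 0.75 for chromosome 9 and 0.25 for chromosome 7.

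The clusters were also set against their own flanks, which does not depend on the scaling of a library. The flanks held 59466 tags with the Upstate-type antibody at T = 0 and 57114 at T = 6d, a ratio of 0.960, and the ratios were 1 with lot 58206 and 0.964 with lot 638466. The odds of a tag lying in a cluster rather than in a flank changed by 0.988 with the Upstate-type antibody at T = 6d (Fisher's exact test, Benjamini-Hochberg adjusted over 20 tests, P = 0.365). They changed by 0.979 with lot 58206 (adjusted P = 0.0551, Fisher's exact test) and by 1.2 with lot 638466 (adjusted P = 2.41e-98, Fisher's exact test). With the last lot, the clusters gained tags while the sequence beside them lost some. The single clusters differed at T = 6d. With the Upstate-type antibody the odds changed by 0.962 on chromosome 2, 0.92 on chromosome 9 and 1.08 on chromosome 7. In the same order they changed by 0.936, 0.926 and 1.09 with lot 58206, and by 1.24, 1.17 and 1.19 with lot 638466.

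The gain with lot 638466 was spread over the clusters. At T = 6d, 63.7% of the cluster windows held more tags than at T = 0 and 29.9% fewer, against 50.5% and 44.0% of all windows and 44.3% and 50.7% of flank windows. The share with more tags was 64.7% on chromosome 2, 62.9% on chromosome 9 and 62.6% on chromosome 7. With the Upstate-type antibody 44.5% of cluster windows held more tags at T = 6d, and with lot 58206 45.4% did. Other low windows of lot 638466 moved the same way to a lesser degree: over all 252578 windows below the median level, the ratio of T = 6d to T = 0 was 1.11. Below the same level, the ratio was 1.19 in the clusters and 1.06 in the flanks. Background windows, those below 1.5 times the median, held 81.1% of the tags of this lot at T = 0 and 84.3% at T = 6d. The part of this shift in the result was not tested.

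**Figure D2:**
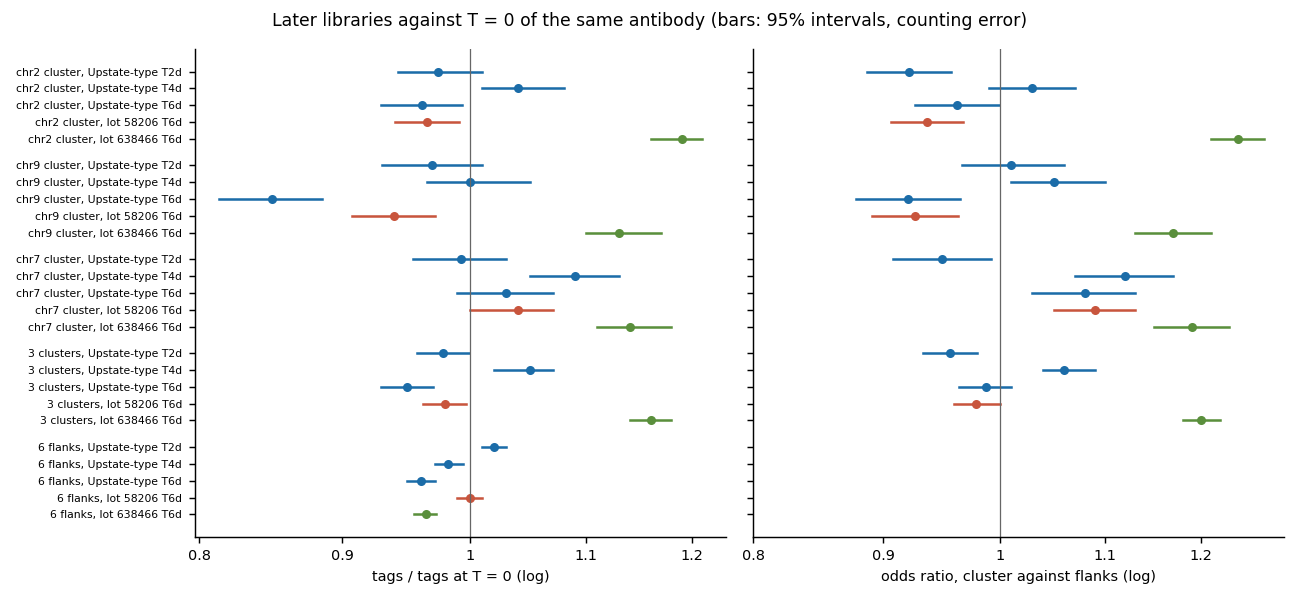
Left, ratio of tags at the later time point to T = 0 of the same antibody for each cluster, the 3 clusters and the 6 flanks; right, odds ratio of cluster against flanks (log scales; points are values and bars 95% intervals for counting error). Ratios of the clusters run from 0.849 to 1.19, all within 1.5-fold of 1, and lot 638466 stands to the right of the other antibodies in every cluster.

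With the Upstate-type antibody, the cluster tags did not fall step by step. The ratio was 0.978 from T = 0 to T = 2d (Fisher's exact test, adjusted over 12 tests, P = 0.0640), 1.07 from T = 2d to T = 4d (adjusted P = 3.14e-09, Fisher's exact test) and 0.908 from T = 4d to T = 6d (adjusted P = 1.31e-17, Fisher's exact test). The direction of the first and the second step turned when the libraries were scaled to the tags of background windows, to 1.05 and 0.981. On chromosome 9 the steps were 0.969, 1.04 and 0.845, so the low value of this cluster at T = 6d arose in the last step.

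Single windows were compared between T = 6d and T = 0 across the 3 antibodies with limma, on log2(tags per 1000000 + 0.5), with the antibody as a term, fitted over all windows of the genome. The antibodies stand in for replicates, and the labels do not state whether they were used on separate cultures, so P values measure the spread between antibody preparations. Among windows of at least 2 times the median level, 12 cluster windows could be tested and 0 were lower or higher at an adjusted P below 0.05 (limma, Benjamini-Hochberg) with a change over 1.5-fold. In the whole genome 3.54% of the 29469 windows tested were lower and 0.0238% higher. At an unadjusted P below 0.05 (limma), 0 cluster windows were lower and 1 was higher, against 2657 and 282 in the genome. The clusters thus had almost no windows high enough for this comparison.

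Without the filter on level, 2080 cluster windows were tested and 13 of them (0.625%) were lower at T = 6d, with 0 higher by limma. In the genome as a whole 0.605% were lower and 0.00555% higher, and in the flanks 19 of 3552 (0.535%) were lower. The share of lower windows in the clusters was thus near that of the genome. At an unadjusted P below 0.05 (limma), 107 cluster windows were lower and 111 higher, against 36145 and 26722 of 504900 in the genome. These 13 windows are named below although the rule for naming asked for the filter, a choice made after their values were seen. They lay on chromosome 9 (10 of 498 tested, 2.01%) and chromosome 2 (3 of 1004, 0.299%), with 0 of 578 on chromosome 7. Each of the 13 held fewer tags at T = 6d with all 3 antibodies, as the comparison that chose them favours. With the antibody left out of the model, or with 1 antibody left out of the data, 0 windows were called in the clusters and 0 in the genome. Without the block, 85 of the 2080 cluster windows were lower at an unadjusted P below 0.05 (limma), against 16927 of 504900 in the genome. With 1 antibody left out, between 61 and 110 were lower in the clusters and between 22794 and 27212 in the genome.

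A filter at the median level gave 220 cluster windows, 15 lower and 1 higher, against 1.79% and 0.0677% in the genome. Most cluster windows lie below this filter, and one can pass it by being high at T = 0 alone, so the higher share among those that passed is not evidence about the clusters. The filtered and the unfiltered comparison shared 10 windows. With 1 antibody left out, the filtered comparison called between 2 and 13 lower windows, with the 2 found without lot 58206.

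In the median, the 13 windows went from above the median window of the genome to below it, but not every window did so with each antibody. Their median was 32 tags at T = 0 and 6 at T = 6d with the Upstate-type antibody (genome 9 and 9), 31 and 7 with lot 58206 (genome 16 and 15), and 40 and 15 with lot 638466 (genome 24 and 25). With the Upstate-type antibody their summed tags were 412, 309, 130 and 78. With lot 58206 they were 417 and 113, and with lot 638466 491 and 192. The values at T = 0 and T = 6d chose the windows and are given as a description. The T = 2d and T = 4d libraries took no part in the choice, and between them each of the 13 windows lost tags, 0.421 times as many remaining. Tags in the rest of the clusters went from 16031 to 17340 over the same step. This rise depends on the scaling: over the whole of the 3 clusters the step was 1.07, but 0.981 with scaling to background windows. From T = 0 to T = 2d, 12 of the 13 windows held fewer tags, with a ratio of 0.750 in sum. The T = 0 values helped to choose the windows, which favours a lower count at T = 2d, so this step is a description only.

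**Figure D3:**
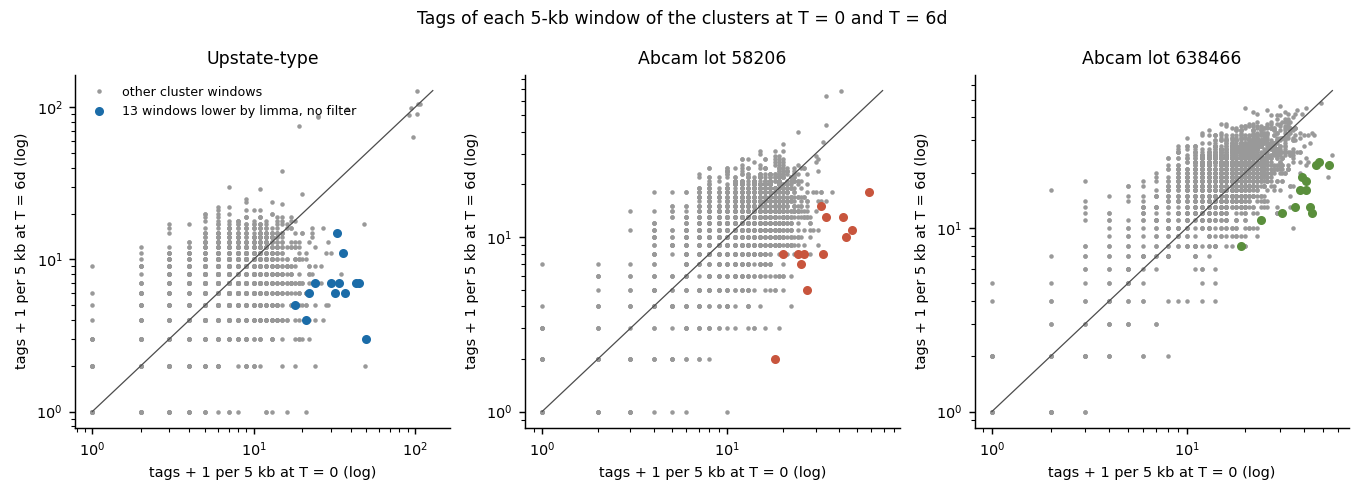
Each point is a 5-kb window of the clusters, with its tags plus 1 at T = 0 on the horizontal and at T = 6d on the vertical axis (log scales) and a line of equal tags, for each antibody. The 13 windows lower by limma without a filter (coloured) lie under the line with every antibody, while the other windows scatter around it, more of them above it with lot 638466.

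On chromosome 9 the 10 lower windows lay within 1.515 Mb, from 37960001 to 39475000, and did not form a single block. Those that start at 38215001, 38220001 and 38225001 adjoin one another, in and at the edge of the box between Olfr147 and Olfr901. The others lay apart from each other. They held 341 tags at T = 0 with the Upstate-type antibody and 63 at T = 6d. The rest of this cluster went from 4336 to 3906, a ratio of 0.901 against 0.849 with them. The low ratio of the chromosome 9 cluster with this antibody was thus only partly in these windows.

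The window with the highest mean level at T = 0 in the chromosome 9 cluster was also the one with the largest fall of the clusters. It lies from 38225001 to 38230000 within the box between Olfr147 and Olfr901. Its tags with the Upstate-type antibody were 49, 40, 7 and 2, with lot 58206 57 and 17, and with lot 638466 38 and 18. Every later library was below T = 0 of its antibody, and the log2 fold change at T = 6d was −1.89 (standard error 0.35, limma adjusted P = 0.0265). It ranked 386 of 504900 by its fall, but a window named for its height at T = 0 is more likely to be lower later.

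Beside it, the window from 38220001 to 38225000 held 44, 31, 6 and 6 tags over the time course, 43 and 9 with lot 58206, and 30 and 11 with lot 638466 (log2 fold change −1.75, standard error 0.27, limma adjusted P = 0.0111). The window from 38215001 to 38220000 held 35, 32, 9 and 10 tags, 33 and 12, and 40 and 15 (−1.28, standard error 0.23, limma adjusted P = 0.0230). In both, most of the fall with the Upstate-type antibody lay between T = 2d and T = 4d. The next window, from 38230001 to 38235000, held 48, 17, 22 and 1 tags, 26 and 12, and 37 and 19 (−1.74, standard error 0.41, limma adjusted P = 0.0834, called with the filter at the median). It had already lost tags at T = 2d. The 20-kb box was chosen by the study as an example, so its fall is not independent evidence about the clusters.

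The windows beside the box did not pass the test. From 38200001 to 38205000, to the left, tags were 10, 5, 7 and 10 with the Upstate-type antibody, 8 and 17 with lot 58206 and 29 and 15 with lot 638466. From 38210001 to 38215000 they were 8, 19, 18 and 11, then 22 and 8, and 30 and 20. From 38240001 to 38245000, to the right, they were 12, 8, 15 and 6, then 16 and 10, and 14 and 13. Their adjusted P values were 0.986, 0.585 and 0.525 (limma), and lot 58206 was lower at T = 6d in the last of them and in the one before it, where the Upstate-type antibody was higher. The window from 38235001 to 38240000, which holds the last 1 kb of the box, was high at T = 4d, when it held 45 tags against 16 at T = 0, 19 at T = 2d and 17 at T = 6d. With lot 58206 it held 24 and 9 tags, and with lot 638466 27 and 33.

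**Figure D4:**
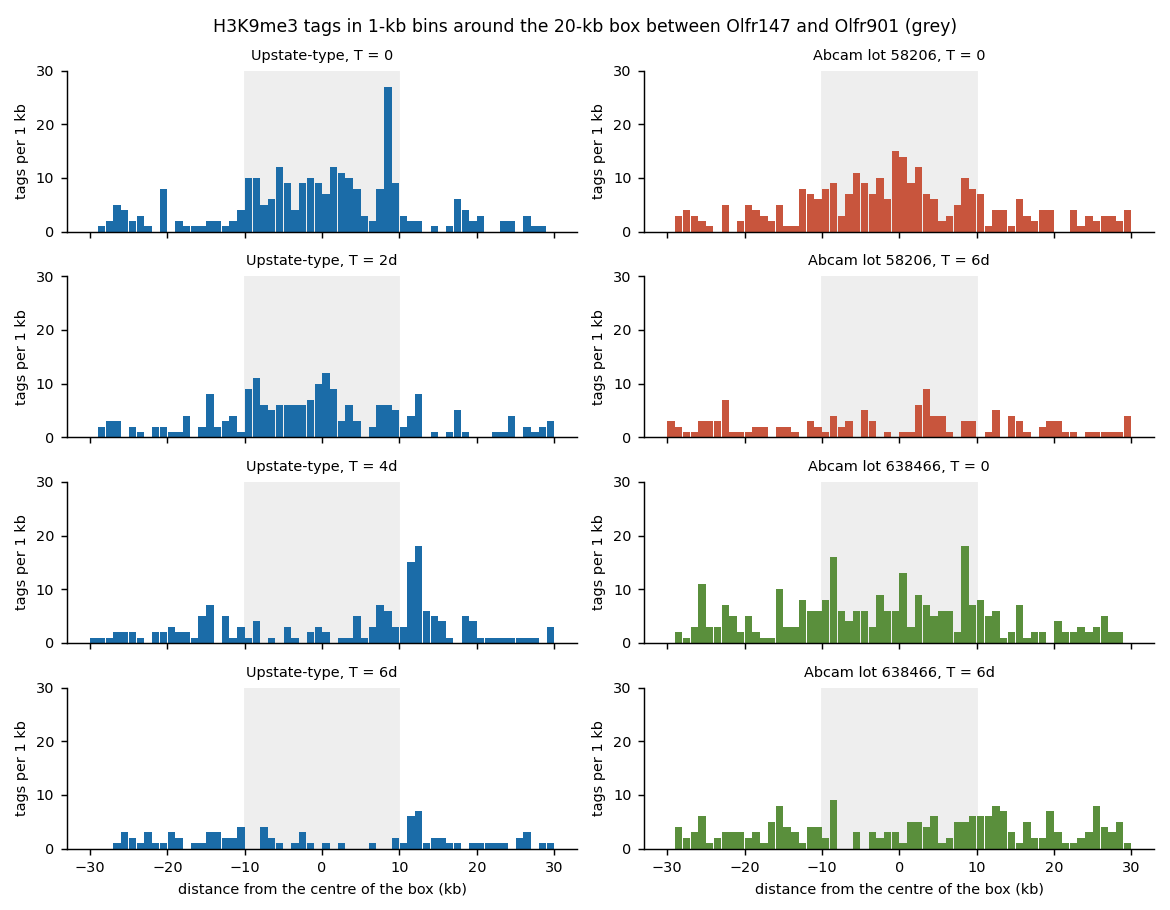
Tags in 1-kb bins (vertical axis) against the distance in kb from the centre of the 20-kb box (grey) between Olfr147 and Olfr901, in each of the 8 libraries. The box stands out from its surroundings at T = 0 with each antibody and no longer does at T = 6d, and with the Upstate-type antibody at T = 4d the highest bins, of 15 and 18 tags, lie just right of the box.

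Further along chromosome 9, the window from 38440001 to 38445000 held 42, 27, 15 and 6 tags with the Upstate-type antibody, 46 and 10 with lot 58206, and 35 and 12 with lot 638466. All later libraries were lower, and its log2 fold change was −1.76 (standard error 0.26, limma adjusted P = 0.0095). The window from 38425001 to 38430000 held 36, 33, 23 and 5 tags, 19 and 7, and 42 and 12 (−1.56, standard error 0.27, limma adjusted P = 0.0200). This one kept most of its tags until T = 4d. The window from 38120001 to 38125000 held 20, 13, 2 and 3 tags, 17 and 1, and 18 and 7 (−1.59, standard error 0.29, limma adjusted P = 0.0243). The other 4 on this chromosome had log2 fold changes from −1.14 to −1.39.

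On chromosome 2, the window from 87710001 to 87715000 held 31, 31, 12 and 5 tags with the Upstate-type antibody. It held 32 and 7 tags with lot 58206, and 43 and 11 with lot 638466. It held as many tags at T = 2d as at T = 0 and fewer with every antibody at T = 6d (log2 fold change −1.75, standard error 0.24, limma adjusted P = 0.00838). The other lower windows of this cluster lay from 86425001 to 86430000 (17, 16, 6 and 4 tags with this antibody) and from 87435001 to 87440000 (23, 18, 8 and 6). In all 3, the first 2 days brought a loss of at most 5 tags. The window with the highest mean level at T = 0 in this cluster, from 87075001 to 87080000, held 28, 22, 12 and 12 tags, 36 and 17, and 52 and 18, and missed the threshold (limma adjusted P = 0.0508), though it was called with the filter at the median (limma adjusted P = 0.0242).

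Larger windows give more tags per test. Of 207 cluster windows of 50 kb, 2 were lower (0.966%) and 0 higher by limma, against 2.75% and 1.22% of 49868 in the genome. At an unadjusted P below 0.05 (limma), 16 cluster windows were lower and 23 higher, against 6170 and 8031 in the genome. Of 519 windows of 20 kb, 15 were lower and 2 higher (2.89% and 0.385%), against 3.16% and 1.2% in the genome. In the chromosome 9 cluster 7 of 125 windows of 20 kb (5.6%) were lower, in that of chromosome 2 7 of 249 (2.81%) and in that of chromosome 7 1 of 145 (0.69%). Without a filter, an alternative added after seeing the data, 10 of 524 windows of 20 kb were lower (1.91%) and 0 higher by limma. In the genome these shares were 2.24% and 0.463%. At an unadjusted P below 0.05 (limma), 44 cluster windows were lower and 50 higher, against 13725 and 13669 of 127077 in the genome. Over the 3 clusters, each share called at 50 and 20 kb with these filters was below that of the genome. Of 105 windows of 100 kb, 2 were lower (1.9%) and 0 higher by limma, against 1.78% and 0.656% in the genome. Cluster windows hold fewer tags, so the shares do not show whether the clusters lost less than the genome.

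The 2 lower windows of 50 kb lay on chromosomes 9 and 2. The first, from 38200001 to 38250000, holds the box, and its tags were 241, 181, 147 and 75 with the Upstate-type antibody, 254 and 108 with lot 58206, and 267 and 172 with lot 638466 (log2 fold change −1.15, standard error 0.17, limma adjusted P = 0.00892). Its tags fell at every step. The second, on chromosome 2 from 87700001 to 87750000, held 121, 105, 56 and 42 tags, 127 and 60, and 155 and 120 (−0.95, standard error 0.19, limma adjusted P = 0.0227). On chromosome 7 the largest fall of a 50-kb window, from 110400001 to 110450000, was −0.43 (standard error 0.20, limma adjusted P = 0.165), with 57, 47, 43 and 31 tags, 60 and 49, and 87 and 74. No chromosome 7 window of this size passed the test.

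The result for 50-kb windows depended on the antibody term and on single antibodies. Without the antibody as a block, 0 cluster windows of this size were lower and 0 in the genome. At an unadjusted P below 0.05 (limma), 6 of 207 were lower in the clusters and 1259 of 49868 in the genome. Without lot 638466 13 cluster windows were lower and 3 higher, on chromosome 9 6 of 50 and on chromosome 2 7 of 99, while in the genome 5.67% were lower and 3.44% higher. Without lot 58206 1 was lower (0.483%), against 0.588% in the genome. An example is the window on chromosome 2 from 86200001 to 86250000, which held 118, 107, 97 and 49 tags with the Upstate-type antibody and 140 and 76 with lot 58206, but 159 and 179 with lot 638466. Its log2 fold change was −0.63 (standard error 0.21, limma adjusted P = 0.0741).

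In the Upstate-type time course alone, the windows were tested by Fisher's exact test. A call needed P below 0.01 and more than 1.5-fold, as the study required for shares of reads. At T = 2d, 6 of the 2080 cluster windows were lower and 8 rose, against 0.792% and 0.8% of all windows. At T = 4d 34 were lower and 25 higher, against 2.08% and 1.06%. By T = 6d 58 were lower (2.79%) and 22 higher (1.06%), against 3.08% and 1.97%. The shares called in the clusters were thus no larger than in the genome at T = 2d and T = 6d. At T = 4d their share of higher windows was 1.2%. At T = 0 the median window with a tag held 7 tags in the clusters and 9 in the genome. A window with so few tags can hardly reach P below 0.01 by a loss. The shares therefore do not show whether the clusters lost less than the genome. Chromosome 9 held 30 of the 58 lower windows at T = 6d (6.02% of its windows), chromosome 2 24 and chromosome 7 4.

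Among the 12 windows of at least 2 times the median level, 0 were lower at any time point by this rule, and 3, 4 and 4 were higher at T = 2d, T = 4d and T = 6d. In the genome, 1.79%, 5.96% and 9.37% of such windows were lower and 6.99%, 3.52% and 5.46% higher. The later Upstate-type library helps a window reach the level, so the number that rose among the 12 is not read as a result. The 4 are neighbours on chromosome 9.

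They belong to a 30-kb stretch of chromosome 9, from 38525001 to 38555000, where H3K9me3 rose with the Upstate-type antibody. This stretch and those that follow were picked after their values were seen, and carry no test. Tags were 127, 259, 413 and 407, which is 1.55, 3.17, 5.05 and 4.98 times the mean of the genome per window. With lot 58206 they were 105 and 137, and with lot 638466 128 and 137. The rise was large with the antibody that has the time course and small with the others, and the density with the Abcam lots stayed between 0.884 and 1.36.

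A second stretch of chromosome 9 was high at T = 4d only. From 38400001 to 38425000, the Upstate-type antibody gave 37, 53, 181 and 60 tags. The density was 2.66 times the mean of the genome at T = 4d and between 0.543 and 0.880 at the other times. With lot 58206 the stretch held 49 and 52 tags and with lot 638466 83 and 120, and neither lot has a T = 4d library. The peak thus rests on 1 library. It raised the 50-kb window from 38400001 to 38450000 to 304 tags at T = 4d, from 169 at T = 0, although that window ended at 106, with 172 and 108 for lot 58206 and 240 and 182 for lot 638466 (log2 fold change −0.56, standard error 0.13, limma adjusted P = 0.0321, short of 1.5-fold).

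Most of the highest windows of the chromosome 7 cluster were high with the Upstate-type antibody alone, and none of the highest windows was called lower. The 20 kb at its left edge, from 109600001 to 109620000, held 392, 484, 398 and 383 tags over the time course, 76 and 69 with lot 58206, and 142 and 112 with lot 638466. At T = 0 this is 7.19 times the mean of the genome with the Upstate-type antibody, 1.13 times with lot 58206 and 1.47 times with lot 638466. The 15 kb from 111370001 to 111385000 held 303, 398, 360 and 292 tags, 52 and 38, and 95 and 70. The window just before them, from 111365001 to 111370000, also reached 2 times the median level but differed. It held 21, 27, 19 and 12 tags, 40 and 68 with lot 58206, and 33 and 32 with lot 638466. The antibodies thus did not see the same peaks here, and the most strongly marked windows of the clusters with 1 antibody were near the mean of the genome with the others. The limma log2 fold changes of the 4 windows at the left edge lay between −0.35 and 0.16, and none passed the test.

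**Figure D5:**
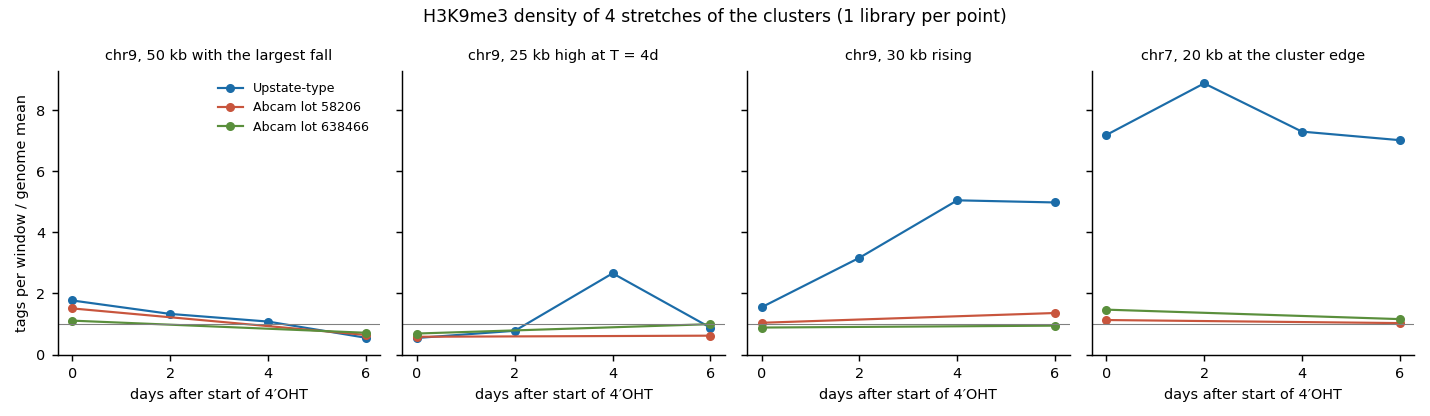
Tags per 5-kb window relative to the mean of the genome (vertical axis, from 0) against days after the start of 4′OHT, 1 library per point, for 4 stretches of the clusters. With the Upstate-type antibody the 50 kb around the box fall, the 25-kb stretch peaks at T = 4d at 2.66, the 30-kb stretch rises from 1.55 to 4.98, and the 20 kb at the edge of the chromosome 7 cluster stay above 7, while both Abcam lots stay below 1.6 in all 4.

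A rise with all antibodies was seen in single windows of each cluster. The 20-kb window of chromosome 7 from 112240001 to 112260000 held 16, 24, 18 and 30 tags with the Upstate-type antibody, 36 and 53 with lot 58206, and 38 and 71 with lot 638466. That of chromosome 9 from 38520001 to 38540000, which overlaps the rising stretch, held 80, 152, 222 and 226 tags, 71 and 108, and 76 and 98. These are the 2 windows of 20 kb called higher, and neither was called without the filter. On chromosome 2 from 85330001 to 85335000, tags were 4, 11, 14 and 18 with the Upstate-type antibody, 15 and 24 with lot 58206, and 19 and 44 with lot 638466. This window was higher in each later library and was the single window called higher with the filter at the median (log2 fold change 1.03, standard error 0.26, limma adjusted P = 0.0409). With scaling to background windows, or without any of the antibodies, it was not called, and without the filter its adjusted P was 0.103 (limma).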

How the data were processed

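The authors mapped reads uniquely, brought the libraries of each antibody to 1 number of tags, extended tags to 300 bp and deposited tag intervals with no strand, score or other unit. The build is mm9 per the labels, and the aligner is not given in the sources used here. Start positions are unique within a library. Tags were placed by their midpoint in windows of 5 kb (also 10, 20, 50 and 100 kb) in Python (3.11.15, with numpy 2.4.6 and pandas 2.3.3). Tests were run in scipy 1.17.1. T = 6d and T = 0 were compared with limma 3.58.1 in R 4.3.3 (lmFit, then eBayes with a trend) after a log2 transform of tags per 1000000 with 0.5 added, over 5-kb windows of at least 2 times and 50-kb windows of at least 0.25 times the median. Figures were drawn with matplotlib 3.10.9.

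The antibody was a term of the model, since libraries were scaled and compared within an antibody. The antibody numbers pair the libraries: after subtraction of the mean of its time point, the T = 0 library of an antibody had a Pearson's r with its T = 6d library of 0.907 (Upstate-type antibody), 0.894 (lot 58206) and 0.424 (lot 638466) across 29469 windows. Fisher's exact tests compared single libraries within an antibody. Both scripts were tested on simulated data. The median number of tags in a 5-kb window at T = 0 was 9, 16 and 24 in the order of the antibodies, which sets the precision of single windows. Groups were taken from the time points and antibodies in the labels, and 0 columns were set aside.

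The clusters and lists were chosen with earlier results of these data known. In each cluster, the rule named the 3 windows that fell most and the 1 that rose most. These had to pass the limma threshold in 1 direction with every antibody. The rule also named the 2 highest at T = 0, the 3 windows of 50 kb with the largest fall, and the box of the study. Not described above are the 50-kb windows that begin at 85900001 on chromosome 2, 37950001 on chromosome 9, and 111400001 and 110600001 on chromosome 7. Their limma adjusted P values were 0.091, 0.0728, 0.164 and 0.355. By limma at 2 times the median 0 were called, so windows called without the filter were named instead, a choice made after their values were seen. Alternatives were other window sizes, filters, pseudocounts, limits and flanks, scaling to background windows, no replicate block and leaving out each antibody. Sequences are from RefSeq (GRCm38.p6), and coordinates were not converted between builds.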

Additional observations from a re-analysis of the deposited data

How the results depend on the processing

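With libraries scaled to background windows, the ratio of T = 2d to T = 0 turned to 1.05 over the 3 clusters (1.05, 1.04 and 1.07 on chromosomes 2, 9 and 7), and that of chromosome 9 at T = 4d to 0.993. Between T = 2d and T = 4d, the change turned to 0.981 over the 3 clusters, 0.982 on chromosome 2 and 0.951 on chromosome 9, and became 1.01 on chromosome 7, while 1 window was lower with the Upstate-type antibody at T = 6d. With flanks of 1 Mb, the odds ratio with the Upstate-type antibody turned to 1 for chromosome 2, 1.03 for chromosome 9 and 0.965 for chromosome 7 at T = 6d and 0.939 for chromosome 9 at T = 2d, and with lot 58206 to 0.987 for chromosome 7. It became 1.05 for chromosome 7 at T = 4d and 0.959 for the 3 clusters with lot 58206. With limits 200 kb inwards it was 0.933 and 0.95 for chromosomes 2 and 9 with the Upstate-type antibody at T = 6d and 0.97 for the 3 clusters with lot 58206. Without windows above 3 times the median it was 0.968, 1.06 and 0.981 for chromosomes 2 and 9 and the 3 clusters at T = 2d, and 1.05 for chromosome 2 at T = 4d. The causes were not tested.

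The limma counts moved with the filter, from 0 lower and 0 higher to 15 and 1 (median level) and to 13 lower (no filter). Without the replicate block, that is without pairing libraries by antibody, 0 windows were called lower or higher at either of these filters, and 0 of 50 kb were lower. The added alternatives, chosen after seeing the data, left out each antibody: lower windows were 0 to 0 without a filter and 2 to 13 at the median, where higher ones were 0 to 0 (also 0 with background scaling). For 50 kb, leaving out each antibody gave 1 to 13 lower and 0 to 3 higher windows, and windows of 20 kb gave 15 and 2 (10 and 0 without a filter, added). Fisher's exact test without a filter (added) gave 6, 34 and 58 lower windows at T = 2d, T = 4d and T = 6d. Higher windows were 8, 25 and 22. The 2 cluster windows chosen on both Abcam lots gave 0 higher. Both lie on chromosome 7, so no chromosome 9 window that rose was tested there. Windows of 10 kb gave 1 higher each time among 5 tested in the clusters. Shallow counts limit single windows, and low level and poor mapping cannot be told apart.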
